A study of Homo sapiens with 6 samples.

Results

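Human chromosome 19 carries the largest family of zinc finger genes in the genome, and 191 of these genes were described here in MV4-11 cells. They were chosen by their counts, as the protein-coding rows of the gene count table with a symbol of ZNF plus a number, a place on chromosome 19 and 10 or more counts in each of the 6 libraries. Of 241 candidates, 191 met this rule and 50 did not, among them 19 with 0 counts in every library. The rule used the counts of all 6 libraries, and the table held 61806 rows in all. Each of the 191 genes passed the filter on low counts, as did 14 of the 50 other candidates, which left 19149 genes for the test.

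MV4-11 is an established line of human acute myeloid leukemia (AML) cells with an internal tandem duplication of FLT3. RNA sequencing was performed on 3 libraries with a control shRNA (shNC 1 to 3) and on 3 libraries labelled as knocked down for ATGL (shATGL 1 to 3), the lipase that releases fatty acids from stored triglycerides. The paper describes ATGL shRNAs delivered by lentivirus, and its methods name puromycin for selecting transduced cells without naming these 6 libraries. All 6 libraries come from 1 line, and if that procedure was used for them, they were under selection and carry a vector. Whether pools or clones were used is not given. Which of the ATGL shRNAs each library carried, and whether the replicates came from separate cultures, is not given in the sources used here, so p-values measure the spread between these libraries only, which may be technical.

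Most genes of this family encode a KRAB domain at the start of the protein and a row of C2H2 zinc fingers at its end. The fingers read DNA, in many members the sequence of a retrotransposon, and the KRAB domain binds TRIM28, also called KAP1. TRIM28 brings the histone methyltransferase SETDB1, heterochromatin proteins and the NuRD complex, which together silence the bound element. The genes arose by repeated tandem duplication and lie in clusters along chromosome 19, so neighbours resemble each other and reads can be counted on the wrong copy.

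Library totals ranged from 59674064 to 74808280 counts. *PNPLA2*, the gene for ATGL, had means of 102 ± 5.10 CPM under shNC and 101 ± 2.96 CPM under the shATGL label (SD, n = 3 each). The unit CPM is a gene's count relative to the TMM-normalised size of its library. The log2 fold change of *PNPLA2* was −0.01 with a standard error of 0.06 (Benjamini-Hochberg adjusted p = 0.979, quasi-likelihood test of edgeR), and the exact two-sided permutation test gave p = 1, where 3 libraries against 3 cannot go below 0.1. Directions below are therefore those of the labels. The library shATGL 3 stood apart from its group, since the chi-square per degree of freedom between its counts and those of shATGL 1 and shATGL 2 was 85.7 and 89.7, against 12.3 between shATGL 1 and 2 and 11.3 to 26.4 within shNC. The 10 markers of a myeloid leukemia line each had 10 or more counts in every library, with a summed level of 2174 to 2302 CPM in shNC and 2052 to 2124 CPM in shATGL. The summed levels of the T cell, epithelial, fibroblast and erythroid marker lists were at most 0.688 CPM in any library, and that of the B cell list was 9.78 to 11.8 CPM.

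Most chromosome 19 zinc finger genes were higher in shATGL 1 and shATGL 2 than in shNC, while their median in shATGL 3 lay at the level of shNC. Over all 3 libraries of each group, 151 of the 191 genes had a higher fitted mean in shATGL and 40 a lower one, where 51.9% of all genes tested were higher and 48.1% lower. The median log2 fold change of the 191 genes was 0.23, and the middle 50% of them ran from 0.04 to 0.48. None of the 191 was called at an adjusted p below 0.05 with a fold change of 2 or more by edgeR's quasi-likelihood test, a rule met by 0.00522% of all genes tested, and none had an adjusted p under 0.05 at any fold change (smallest adjusted p = 0.392). At an unadjusted p under 0.05, edgeR had 23 of the 191 higher and 2 lower, against 5.77% and 5.94% of all genes tested. The count of 23 was 83 without shATGL 3, 7 without shATGL 1, 10 without shATGL 2, 12 without shNC 1, 9 without shNC 3 and 30 without shNC 2. The shares of all genes tested in the first 5 of those fits were 14.7%, 2.81%, 2.87%, 4.02% and 3.33% in the same order. Without shNC 2, 1077 of 19966 genes tested were higher at that p. DESeq2 called 2 of the 191 at the thresholds above, against 0.15% of the genes with an adjusted p, and limma voom with quality weights called 8, against 1.39%. At an unadjusted p under 0.05, limma voom had 79 members higher and 6 lower, against 15.5% and 15.1% of all genes tested, and DESeq2 had none lower, against 3.14%. RNA from bulk cultures does not tell whether fewer cells express a gene or each cell holds less of its RNA.

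In the single libraries the pattern was as follows. The median over the 191 genes of log2 CPM minus the gene's own mean in shNC was 0.02, 0.11 and −0.10 in shNC 1, 2 and 3. In shATGL 1 and 2 it was 0.40 in each, and in shATGL 3 it was −0.03. The summed level of the 191 genes was 1559, 1613 and 1465 CPM in shNC 1, 2 and 3 and 1952, 1912 and 1520 CPM in shATGL 1, 2 and 3, so shATGL 3 lay within the range of shNC. The group means were 1546 ± 74.9 CPM (SD, n = 3) and 1795 ± 238 CPM (SD, n = 3). The highest library was shATGL 1 for 70 genes (17.7% of all genes tested had theirs there) and shATGL 2 for 63 genes (19.5% of all genes tested). The lowest library was shNC 3 for 70 genes (19.6% of all genes tested) and shATGL 3 for 51 genes (19.8% of all genes tested). In 100 of the 191 genes, or 52.4%, shATGL 1 and 2 were both above every shNC library, against 24.9% of all genes tested. The count in which all 3 shATGL libraries were above all 3 shNC libraries was 15 of 191, or 7.85%, which is close to the 7.93% of all genes tested. Only 5 of 191, or 2.62%, lay wholly below, against 9.38% of all genes tested.

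**Figure D1:**
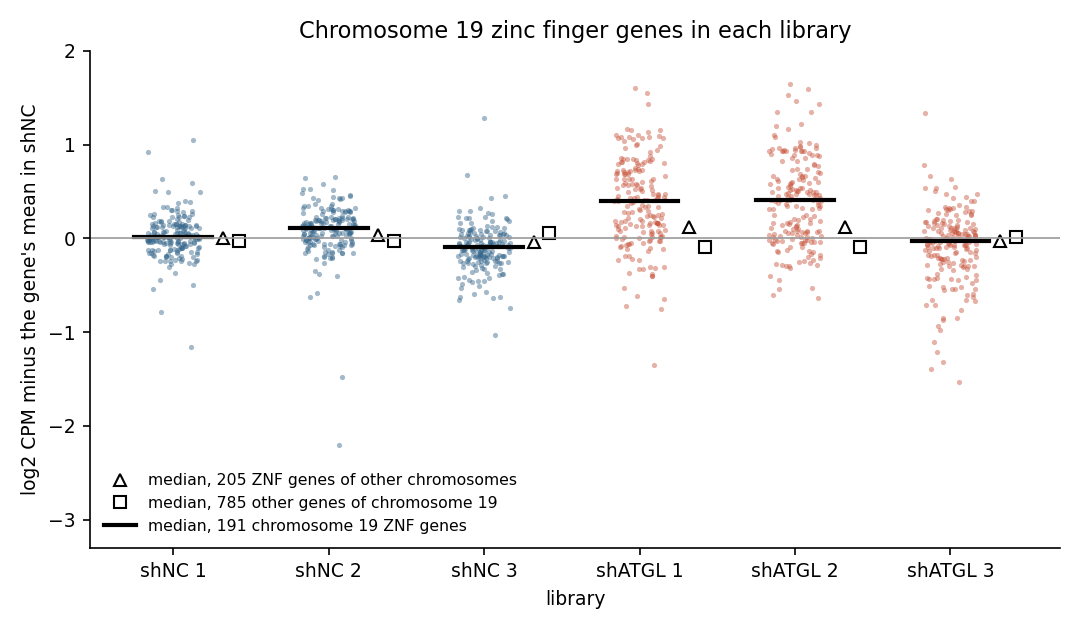
Level of each of the 191 chromosome 19 zinc finger genes in each of the 6 libraries, as log2 CPM minus the gene's mean in shNC (1 point per gene, black bar for the median), beside the medians of zinc finger genes on other chromosomes (triangles) and of the other protein-coding genes on chromosome 19 (squares). The black bars of shATGL 1 and 2 lie at 0.40 and that of shATGL 3 at −0.03, between those of shNC 1 and shNC 3.

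In the plot the points of shNC are measured from their own mean, so their width cannot be compared with that of shATGL. The median SD of log2 CPM was 0.32 among the shATGL libraries and 0.20 among the shNC libraries. In 127 of the 191 genes the SD was larger in shATGL. That is 66.5% of them, as against 66.6% of all protein-coding genes tested. The 205 tested ZNF genes with a number on other chromosomes showed the same order of libraries at a smaller size, with medians of 0.12, 0.12 and −0.03 in shATGL 1, 2 and 3 and a median log2 fold change of 0.08 (143 of 205 higher). The other 785 protein-coding genes tested on chromosome 19 had a median log2 fold change of −0.05, with 296 of 785 higher. Their medians were −0.09, −0.09 and 0.02 in shATGL 1, 2 and 3. The zinc finger genes and these genes, taken from the whole chromosome, thus lay on opposite sides of the shNC mean in shATGL 1 and 2. Genes outside the family with a transcript GC content of 44.5% to 71.1%, wherever they lie, had medians of −0.05 and −0.05 there. In a fit with length and GC trends removed, given below, the median log2 fold changes were 0.16 for the 191 genes and −0.05 for the 785. The part of GC in this contrast was not tested beyond that fit. These medians are descriptions, and no test between the sets was run.

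Without shATGL 3, the median log2 fold change of the 191 genes was 0.34, 152 of them were higher (50.9% of all genes tested were), and 50 were higher at an adjusted p under 0.05 by edgeR (7.94% of all genes tested were). These 50 genes had log2 fold changes of 0.40 to 1.51, and 46 of them carry a KRAB box, as do 83.2% of all 191 members. In 44 of the 50, shATGL 3 was at or below the highest shNC library, and in 17 it was the lowest library of all. The matching shares over all genes higher in that fit were not computed, so these counts do not set the family apart. A fold change of at least 2 was reached by 12 of them (1.5% of all genes tested), which are *ZNF441*, *ZNF480*, *ZNF66*, *ZNF569*, *ZNF615*, *ZNF761*, *ZNF493*, *ZNF254*, *ZNF260*, *ZNF20*, *ZNF85* and *ZNF181*. Those not covered by the naming rule are named here after their values were seen. *ZNF480*, a KRAB zinc finger gene, was at 9.48, 10.9 and 11.2 CPM in shNC 1 to 3, against 28.4, 31.6 and 9.97 CPM in shATGL 1, 2 and 3. For *ZNF480* the first 2 shATGL libraries were far above shNC and the last lay inside its range. Its log2 fold change without shATGL 3 was 1.51 (adjusted p = 0.000311 from edgeR), and *ZNF787* was the only one of the 191 lower at an adjusted p under 0.05 (log2 fold change −0.27, adjusted p = 0.0372 from edgeR), where 6.07% of all genes tested were.

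The 6 members with the smallest p among those higher in shATGL were *ZNF441*, *ZNF66*, *ZNF43*, *ZNF814*, *ZNF700* and *ZNF569*, all genes with a KRAB box. Each had an adjusted p of 0.392 from edgeR's quasi-likelihood test. *ZNF441* (ENSG00000197044, chr19:11767000-11784078, plus strand) was at 3.05, 3.14 and 2.72 CPM in shNC 1 to 3, against 8.98, 8.01 and 4.33 CPM in shATGL 1, 2 and 3, from 187 to 666 counts. All 3 shATGL libraries were above all 3 shNC libraries, with shATGL 3 nearest to shNC. The log2 fold change of *ZNF441* was 1.26 (standard error 0.26, 2.39-fold), the largest of the 191. *ZNF66* (ENSG00000160229, chr19:20776304-20807322, plus strand) was at 1.59, 1.80 and 2.23 CPM in shNC and at 3.72, 5.35 and 3.18 CPM in shATGL. The libraries of *ZNF66* did not overlap, and its log2 fold change was 1.13 (standard error 0.24, 2.18-fold). *ZNF441* and *ZNF66* were also the 2 members that DESeq2 called (adjusted p = 0.00525 and 0.0259).

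*ZNF43* (ENSG00000198521, chr19:21804949-21852125, minus strand), a gene of 19 fingers, was at 1.89, 2.55 and 1.82 CPM in shNC and at 3.39, 4.01 and 3.26 CPM in shATGL. Its groups did not overlap and its 3 shATGL libraries lay close together (log2 fold change 0.77, standard error 0.19). *ZNF814* (ENSG00000204514, chr19:57848731-57889074, minus strand) was at 5.26, 5.09 and 4.96 CPM in shNC and at 7.39, 7.08 and 6.41 CPM in shATGL. This was the tightest of the 6, with a mean within-group SD of 0.07 on the log2 scale and no overlap (log2 fold change 0.45, standard error 0.12). Exons of *ZNF814* overlap those of *ZNF587* on the other strand, which had 1969 to 2776 counts, and the strand setting of the counting is not given in the sources used here, so the counts of *ZNF814* are uncertain. *ZNF700* (chr19:11925068-11950773, plus strand) was at 22.2, 24.9 and 18.0 CPM in shNC and at 37.7, 37.3 and 24.9 CPM in shATGL. Its shNC 2 and shATGL 3 libraries met (log2 fold change 0.62, standard error 0.19). *ZNF569* (chr19:37411155-37469275, minus strand) was at 4.02, 4.42 and 3.43 CPM in shNC and at 8.26, 10.8 and 4.41 CPM in shATGL. For *ZNF569*, shATGL 3 lay at the level of shNC 2 and the other shATGL libraries were well above it (log2 fold change 0.99, standard error 0.30). Exons of *ZNF569* overlap those of *ZNF570* on the other strand, which had 83 to 308 counts, so the counts of *ZNF569* are uncertain too. Without shATGL 3 all 6 genes had an adjusted p under 0.05 from edgeR, from 0.00116 for *ZNF441* to 0.0406 for *ZNF43*, at log2 fold changes of 0.50 for *ZNF814* to 1.51 for *ZNF441*. These 6 were picked by their p in the fit of all libraries, and shATGL 3 was the lowest shATGL library in each. The values without it are thus no separate test of them.

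**Figure D2:**
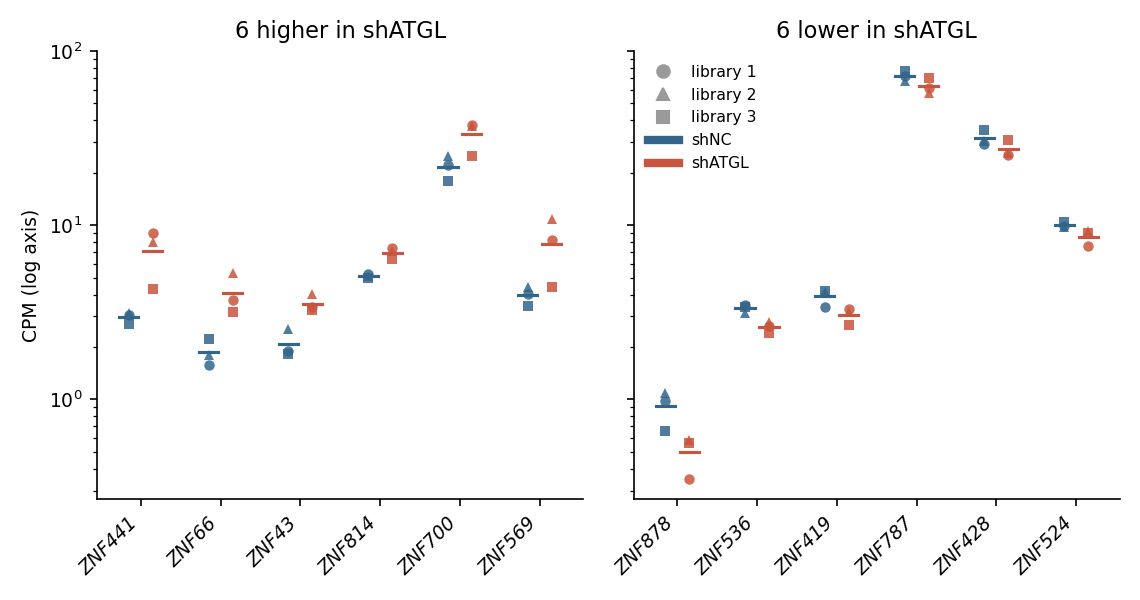
CPM on a log axis of the 6 members with the smallest p among those higher (left) and among those lower (right) in shATGL, with 1 point per library (circle, triangle and square for libraries 1, 2 and 3) and a bar for the group mean. ZNF441, ZNF66, ZNF43 and ZNF814 show no overlap between shNC and shATGL, and the square of shATGL 3 is the lowest red point in all 6 genes on the left.

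The 6 members with the smallest p among those lower were *ZNF878*, *ZNF536*, *ZNF419*, *ZNF787*, *ZNF428* and *ZNF524*, and 4 of them have no match to the KRAB pattern. *ZNF878* (chr19:12043805-12052939, minus strand), a KRAB zinc finger gene, was at 0.980, 1.09 and 0.663 CPM in shNC and at 0.351, 0.588 and 0.566 CPM in shATGL, from 26 to 71 counts. All its shATGL libraries were lower than all shNC libraries (log2 fold change −0.86 with a standard error of 0.34, edgeR adjusted p = 0.405). *ZNF536* (chr19:30228290-30713538, plus strand), a brain-expressed repressor of neuronal differentiation without a KRAB box, was at 3.49, 3.13 and 3.38 CPM in shNC and at 2.66, 2.79 and 2.40 CPM in shATGL. The groups did not overlap and the difference was small (log2 fold change −0.35 with a standard error of 0.15, edgeR adjusted p = 0.425). *ZNF787* (chr19:56087366-56121280, minus strand) was at 71.4, 67.6 and 76.7 CPM in shNC and at 61.4, 57.7 and 69.8 CPM in shATGL. Here shATGL 3 was inside the range of shNC and the other shATGL libraries were below it (log2 fold change −0.19 with a standard error of 0.09, edgeR adjusted p = 0.45). The log2 fold changes of *ZNF419*, *ZNF428* and *ZNF524* were −0.35, −0.21 and −0.22, and the libraries of *ZNF419* and *ZNF524* did not overlap. Exons of *ZNF524* overlap those of *FIZ1* on the other strand, which had 1300 to 1715 counts, so the counts of *ZNF524* are uncertain. Of these 6 genes, *ZNF787* alone had an adjusted p under 0.05 without shATGL 3.

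Promoter sequences are shown for *ZNF878* and for 3 members higher in shATGL. These 3 have the smallest p among the higher members whose window holds an ETS core. They were thus chosen for the core, so the sequences cannot tell whether higher and lower genes differ in it. In the longer windows described below, the higher genes *ZNF441*, *ZNF700* and *ZNF569* had no ETS core. Of the lower genes named above, *ZNF419* and *ZNF787* had it. *ZNF878*, *ZNF536* and *ZNF428* did not, and *ZNF524* had no window. The sequences shown are the 200 bases before the start in the RefSeq annotation of GRCh38.p14, written from 5′ to 3′ on the strand of the gene. Capitals mark the ETS core CCGGAAG (or CTTCCGG on the other strand) and the CCAAT box.
ZNF66: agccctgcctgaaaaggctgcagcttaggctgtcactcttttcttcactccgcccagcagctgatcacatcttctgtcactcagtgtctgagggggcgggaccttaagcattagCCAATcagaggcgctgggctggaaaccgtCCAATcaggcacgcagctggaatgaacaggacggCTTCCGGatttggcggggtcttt
ZNF43: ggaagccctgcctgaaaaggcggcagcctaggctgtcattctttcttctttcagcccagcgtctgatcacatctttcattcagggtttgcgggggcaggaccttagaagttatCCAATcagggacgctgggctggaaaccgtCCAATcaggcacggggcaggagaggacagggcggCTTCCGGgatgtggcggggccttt
ZNF814: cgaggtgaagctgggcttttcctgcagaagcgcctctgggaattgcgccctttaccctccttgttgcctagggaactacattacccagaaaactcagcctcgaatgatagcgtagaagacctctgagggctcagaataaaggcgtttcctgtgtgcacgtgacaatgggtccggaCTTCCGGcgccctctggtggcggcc
ZNF878: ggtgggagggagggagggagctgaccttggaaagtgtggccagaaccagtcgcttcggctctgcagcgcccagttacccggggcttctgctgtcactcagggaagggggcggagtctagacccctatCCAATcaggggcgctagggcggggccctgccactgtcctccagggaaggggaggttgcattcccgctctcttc

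The windows are chr19:20776104-20776303 (*ZNF66*), chr19:21836183-21836382 (*ZNF43*), chr19:57889038-57889237 (*ZNF814*) and chr19:12052962-12053161 (*ZNF878*). The RefSeq start of *ZNF43* is inside the GENCODE 29 gene given above, so its window is too and does not stand before the outermost start, and the window of *ZNF814* overlaps the end of its GENCODE gene. The RefSeq start of *ZNF878* lies outside its GENCODE gene. *ZNF66* and *ZNF43*, which lie in the same cluster, share the ETS core at nearly the same distance from the start and a pair of CCAAT boxes upstream of it, and much of the sequence between them. The 200 bases of *ZNF814* hold the ETS core and no CCAAT box, and those of *ZNF878* hold 1 CCAAT box and no ETS core. Across the 300-base RefSeq windows, from 250 bases before to 50 after the start and on both strands, the ETS core was found in 77 of 172 members with a window (44.8%). It was in 39.6% of the windows of other ZNF genes tested, 14.2% of those of protein-coding genes and 10.7% of all RefSeq windows. The CCAAT box was in 54.1% of the members, 45.6% of the other ZNF genes, 36.4% of protein-coding genes and 35.7% of all windows. For the YY1 core GCCATNTT these shares were 14.5%, 10.1%, 7.92% and 6.82%, and for the TATA box TATAAA they were 2.33%, 4.14%, 9.63% and 12%. The members had a median of 20.5 CpG per window, against 25 for other ZNF genes tested, 22 for protein-coding genes and 14 for all windows. The 77 members with an ETS core had a median log2 fold change of 0.31 and the 95 without it 0.18, while members with and without a CCAAT box had 0.18 and 0.27. A match of these letters is a description of the window and not a binding site.

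The median difference was larger among the genes with a KRAB box. A pattern of conserved KRAB A-box residues was found in 159 members, among the first 250 residues encoded by any of their protein-coding transcripts. The median log2 fold change of these 159 was 0.28, with 133 of 159 higher. The other 32 members, among which some divergent KRAB boxes may be missed by the pattern, had a median of 0.03, with 18 of 32 higher. In single libraries the medians of the KRAB genes were 0.44, 0.46 and −0.04 in shATGL 1, 2 and 3, and those of the 32 others were 0.04, 0.01 and −0.02. Of the 23 members higher at an unadjusted p under 0.05 by edgeR, 21 have the KRAB pattern, where 83.2% of all 191 members have it. The number of C2H2 fingers, counted by a pattern as well, ranged from 0 in *ZNF738* to 32 in *ZNF91*. Median log2 fold changes were 0.15 for the 65 genes with up to 10 fingers, 0.19 for the 71 with 11 to 14 and 0.35 for the 55 with 15 or more. The groups also differed in base composition. Median transcript GC was 42.1% in the KRAB genes and 59.2% in the other 32. In the fit with length and GC trends removed, given below, the median log2 fold changes were 0.18 for the KRAB genes and −0.03 for the others. There 121 of 159 and 15 of 32 were higher, where 46.8% of all genes tested were. The part of GC in the difference between these groups was not tested beyond that fit.

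Along the chromosome, the candidates fall into 16 blocks when a gap of over 1 Mb between starts begins a new one, and 7 blocks with 10 or more members hold 175 of the 191. The highest median among these 7 was in block 15, from *ZNF175* to *ZNF331* near 51.6 to 53.6 Mb, with a log2 fold change of 0.44 and 28 of 30 members higher. Block 9, from *ZNF565* to *ZNF573*, had a median of 0.39 with 17 of 18 higher, and block 5, from *ZNF101* to *ZNF254*, had 0.37 with 25 of 26 higher. In block 3, from *ZNF653* to *ZNF791*, the median was 0.33 with 14 of 20 higher, and in block 12, from *ZNF575* to *ZNF296*, it was 0.27 with 17 of 19 higher. The 51 members of block 16, from *ZNF628* to *ZNF446* at the end of the long arm, had a median of 0.07 with 33 of 51 higher. Block 2, from *ZNF557* to *ZNF846*, had 0.06 with 7 of 11 higher. The median transcript GC was 37.3% in block 5, 39.7% in block 9 and 41.1% in block 15, against 46.6% in block 16 and 43.5% in block 2.

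**Figure D3:**
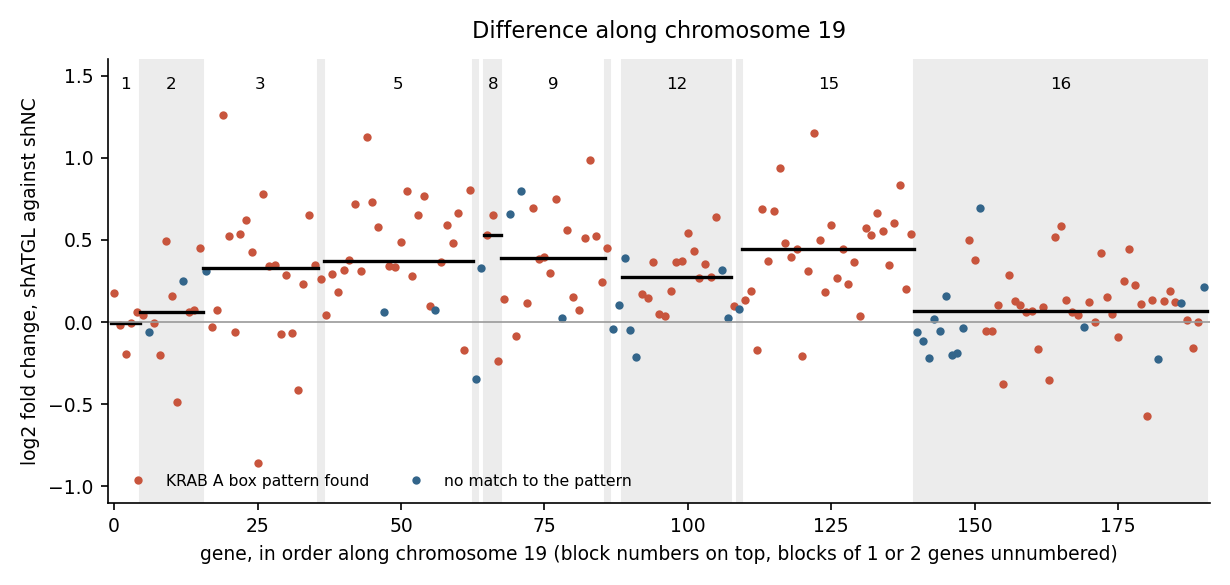
Fitted log2 fold change, shATGL against shNC, of the 191 genes in their order along chromosome 19, with shading and numbers for blocks, black bars for the medians of blocks of 3 or more genes, and colour for the KRAB A-box pattern. Blocks 3, 5, 9 and 15 have medians of 0.33 to 0.44, while blocks 1, 2 and 16 lie near 0.

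Base composition moved with the difference more than transcript length did. Across the 191 genes Spearman's rho of the log2 fold change was −0.52 with the GC content of the longest transcript and 0.16 with its length, against −0.16 and 0.22 across the 18566 tested genes with a transcript. These genes share libraries and are not independent replicates, and no p is given. The 64 members of lowest GC (34.1% to 40.8%) had a median log2 fold change of 0.38, with 59 of 64 higher, and all genes tested in that range had 0.14 with 70.2% higher. The 63 members of middle GC had 0.27, against 0.04 for all genes of their range, and the 64 members of highest GC (44.5% to 71.1%) had 0.07, against −0.02. In shATGL 1, 2 and 3 the medians of the low-GC members were 0.69, 0.64 and −0.21. Other genes in that range of GC stood at 0.27, 0.27 and −0.17 in those libraries, so the order of the libraries was shared and the size was smaller. For the high-GC members the medians were 0.09, 0.01 and 0.02.

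By length, the 64 shortest transcripts (1260 to 2955 bases) had a median log2 fold change of 0.13, against −0.05 for all genes of that length. The 63 of middle length had 0.32 against 0.02, and the 64 longest (4517 to 13894 bases) had 0.25 against 0.09. This order did not hold with the median transcript length of each gene in place of the longest, where the low, middle and high groups had 0.31, 0.17 and 0.27, against −0.03, −0.01 and 0.06 for all genes of those lengths. After each library's trend with length and GC was removed by splines, the median of the 191 genes was 0.16 with 136 of 191 higher, where 46.8% of all genes tested were higher. At an unadjusted p under 0.05 that fit had 24 members higher and 4 lower, against 5.55% and 6.74% of all genes tested. In it the low-GC members had a median of 0.21 and the high-GC members 0.07, and *ZNF441*, *ZNF66* and *ZNF569* had log2 fold changes of 1.05, 1.07 and 0.79. The part of GC and length in the difference was not tested beyond this fit.

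**Figure D4:**
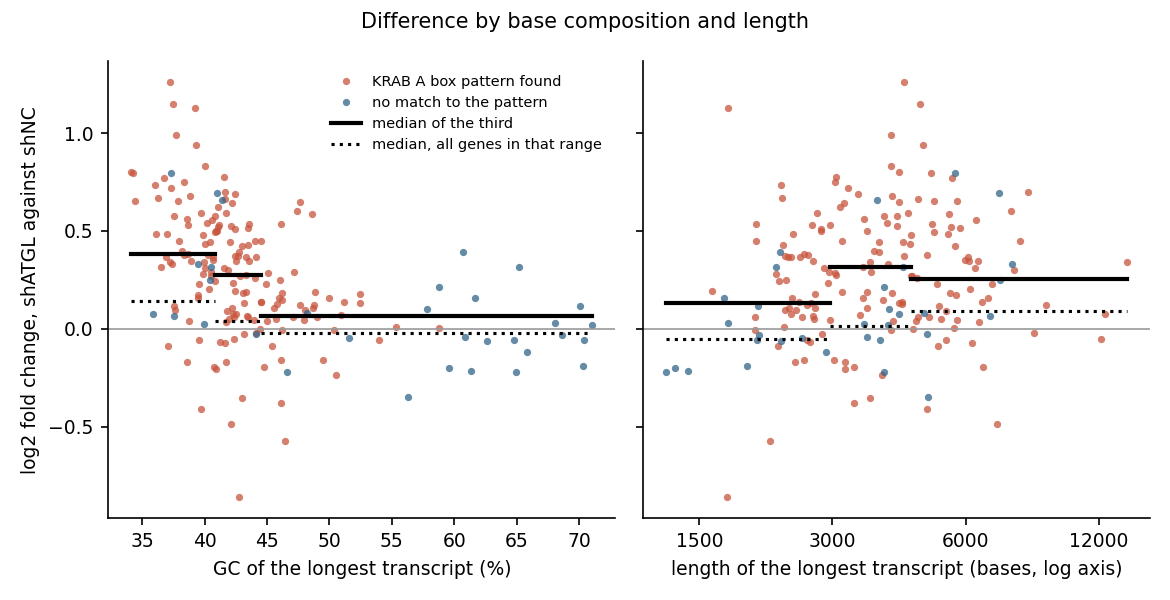
Fitted log2 fold change of the 191 genes against the GC content (left) and the length (right, log axis) of the longest transcript, coloured by the KRAB A-box pattern, with solid bars for the medians of the low, middle and high groups and dotted bars for the medians of all genes tested in the same range. The solid bars on the left step down from 0.38 to 0.27 and 0.07 and lie above the dotted bars of 0.14, 0.04 and −0.02.

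The 16 members with a role that is well known were looked at one by one. As a list they had 14 higher and 2 lower (51.9% of all genes tested were higher), with a median log2 fold change of 0.37. At an unadjusted p under 0.05 by edgeR 3 were higher, against 5.77% of all genes tested, and none had an adjusted p under 0.05. Among the repressors of retrotransposons, *ZNF91*, which silences SVA elements, was at 6.43, 7.95 and 8.63 CPM in shNC and at 13.5, 11.5 and 7.16 CPM in shATGL. *ZNF93*, which silences older primate LINE-1 elements, was at 12.7, 15.9 and 12.9 CPM in shNC and at 23.6, 21.6 and 8.70 CPM in shATGL. For both genes shATGL 1 and 2 were above shNC, and shATGL 3 was within its range for *ZNF91* and the lowest library for *ZNF93*. The log2 fold changes were 0.48 (standard error 0.23) for *ZNF91* and 0.38 (standard error 0.33) for *ZNF93*, with adjusted p of 0.46 and 0.661 from edgeR. Without shATGL 3 they were 0.70 and 0.71, with adjusted p of 0.0255 and 0.0121 from edgeR. *ZNF417* and *ZNF587*, near-identical neighbours that act on the endogenous retrovirus HERV-K and between which reads may be shared, did not show this split. *ZNF417* was at 6.53, 8.70 and 6.77 CPM in shNC and at 8.28, 7.69 and 7.70 CPM in shATGL, while *ZNF587* was at 33.8, 34.5 and 27.8 CPM and at 37.5, 35.2 and 40.0 CPM. *ZNF649*, which binds LINE-1 sequences, was at 1.13 ± 0.173 CPM in shNC and 1.01 ± 0.120 CPM in shATGL (SD, n = 3 each).

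*ZNF274*, which marks the 3′ ends of zinc finger genes with SETDB1 and so acts on this family itself, was among the steadiest members. It was at 30.8, 31.0 and 32.5 CPM in shNC and at 34.6, 34.6 and 33.9 CPM in shATGL. The libraries did not overlap, and the difference was small (log2 fold change 0.13 with a standard error of 0.07, edgeR adjusted p = 0.493). *ZNF146*, a protein made of fingers without a KRAB box, was at 65.5, 81.8 and 57.1 CPM in shNC and at 131, 128 and 62.2 CPM in shATGL. Among the 16 genes *ZNF146* had the highest level, and its shATGL 3 library lay inside the shNC range (log2 fold change 0.66 with a standard error of 0.27, edgeR adjusted p = 0.418). *ZNF224*, a repressor of aldolase A and a partner of WT1, was at 19.3, 17.2 and 12.1 CPM in shNC and at 28.6, 28.2 and 13.8 CPM in shATGL. *ZNF675*, an inhibitor of TRAF6 signalling, was at 8.53, 10.9 and 6.87 CPM in shNC and at 15.5, 17.2 and 8.94 CPM in shATGL. For both, shATGL 1 and 2 were above shNC and shATGL 3 lay within its range, with log2 fold changes of 0.54 and 0.67 over all libraries and 0.81 and 0.90 without shATGL 3. *ZNF43*, given above, was the only one of the 3 genes at an unadjusted p under 0.05 whose groups did not overlap.

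*ZNF350*, a partner of BRCA1, was at 2.42 ± 0.149 CPM in shNC and 3.12 ± 0.531 CPM in shATGL (SD, n = 3 each). *ZNF175*, which represses the HIV-1 promoter in macrophages, was at 13.4 ± 1.40 CPM and 14.7 ± 2.01 CPM (SD, n = 3 each), and *ZNF304*, a recruiter of TRIM28 to tumor suppressor genes, was at 4.74 ± 1.30 CPM and 5.16 ± 0.756 CPM (SD, n = 3 each). For *ZNF444*, a SCAN-domain gene, the values were 21.8 ± 1.91 CPM and 21.3 ± 1.30 CPM (SD, n = 3 each), with a 95% confidence interval of the log2 fold change from −0.27 to 0.20. *ZNF331*, an imprinted gene, was at 0.549 ± 0.0987 CPM and 0.796 ± 0.222 CPM (SD, n = 3 each). In *ZNF350* and *ZNF331*, too, shATGL 1 and 2 were above every shNC library and shATGL 3 was within the shNC range. The same held in *ZNF175*, where shATGL 2 at 14.95 CPM barely passed shNC 2 at 14.92 CPM. *ZNF382*, a tumor suppressor candidate, was at 0.607, 0.655 and 0.395 CPM in shNC and at 1.16, 1.10 and 0.416 CPM in shATGL, again with shATGL 3 within the shNC range. Exons of *ZNF382*, which had 25 to 86 counts, overlap those of *ZNF529* on the other strand, which had 342 to 723. Its counts are thus uncertain, as for *ZNF814*.

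**Figure D5:**
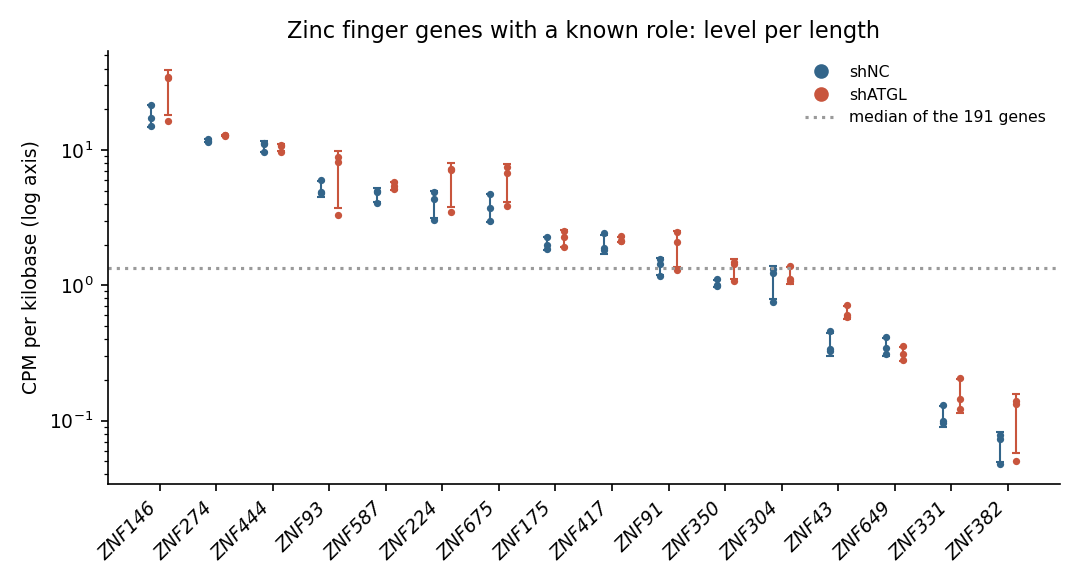
Level per kilobase of transcript (CPM per kilobase, log axis) of the 16 members with a known role in shNC (blue) and shATGL (red), with 1 point per library and bars of ± 1 SD around the mean, beside the median of the 191 genes (dotted). ZNF146 is highest and ZNF382 lowest. ZNF91, ZNF93, ZNF224, ZNF675, ZNF146, ZNF382, ZNF350 and ZNF331 show 2 red points above the blue ones and 1 among or under them, as does ZNF175 by a narrow margin.

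As a family these genes were expressed at a low level. Per kilobase of the longest transcript, the median over the 191 genes was 1.33 CPM, against 7.11 CPM for all protein-coding genes tested, and the range was from 0.06 to 35.0 CPM. The highest levels per kilobase were 37.3 ± 2.36 CPM (SD, n = 3) in shNC for *ZNF787* and 22.4 ± 2.23 CPM (SD, n = 3) for *ZNF428*, followed by *ZNF146* and by *ZNF317* at 14.6 ± 0.386 CPM (SD, n = 3). In shNC, *ZNF146* was at 18.0 ± 3.32 CPM per kilobase (SD, n = 3), a range of 1 SD that overlaps that of *ZNF428*, and *ZNF787* was above both. This order turned on the length used: with the median transcript length, *ZNF444* and *ZNF224* were at 35.1 and 34.3 CPM per kilobase over all libraries, above *ZNF428* at 26.4 and *ZNF146* at 24.7, where the longest transcript gave 10.5 and 5.0 for the first pair. In shATGL, *ZNF146* was at 28.4 ± 10.3 CPM per kilobase (SD, n = 3), a range that overlaps those of *ZNF787* at 32.7 ± 3.23 and *ZNF428* at 19.4 ± 2.09. *ZNF426*, *ZNF382*, *ZNF154* and *ZNF331* were lowest, at 0.060 to 0.133 CPM per kilobase over all libraries. The 1 SD ranges of neighbours in this order overlapped in shNC, where *ZNF426* was at 0.0699 ± 0.00516 CPM and *ZNF331* at 0.109 ± 0.0196 CPM per kilobase (SD, n = 3 each). The low end also turned on the length used. With the median transcript length, *ZNF382* and *ZNF331* were at 0.27 and 0.36 CPM per kilobase over all libraries, above *ZNF221* at 0.21 and *ZNF573* at 0.24. *ZNF317*, a KRAB zinc finger gene, was the steadiest of all, at 60.3, 60.7 and 57.8 CPM in shNC and at 60.2, 58.7 and 59.3 CPM in shATGL. Its log2 fold change was −0.01 with a 95% confidence interval from −0.15 to 0.14. The 10 members with the highest CPM made up 27.1% of the summed CPM of the family.

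The spread within groups was large for genes of this family, with a median within-group SD of log2 CPM of 0.30, against 0.129 for all protein-coding genes tested. The 4 widest members were *ZNF614*, *ZNF490*, *ZNF615* and *ZNF525*, all KRAB genes. *ZNF490* was at 4.56 and 5.82 CPM in shNC 1 and 3, at 4.99 to 6.11 CPM in the 3 shATGL libraries, and at 0.521 CPM in shNC 2, where it had 31 counts. A protein-coding transcript model that overlaps it on the same strand, ENSG00000269693, had 106 counts in shNC 1 and 0 in each of the other libraries. *ZNF614* was low in the same library, at 1.06 CPM in shNC 2 against 6.11 and 3.96 CPM in shNC 1 and 3, and was at 8.61, 9.23 and 3.53 CPM in shATGL. For *ZNF615*, its neighbour, shATGL 3 was the low library instead, with 0.814, 1.23 and 0.762 CPM in shNC and 1.81, 2.32 and 0.316 CPM in shATGL. Exons of 65 of the 191 genes overlap those of another protein-coding gene. The 126 without such an overlap had a median log2 fold change of 0.27, with 99 of 126 higher.

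At the edge of the rule, the members with the lowest minimum count were *ZNF256* (16 counts), *ZNF573* (18) and *ZNF221* (19, a tie with *ZNF615*), with log2 fold changes of −0.57, 0.24 and 0.37. Just outside it, *ZNF541* (9 counts in its lowest library), *ZNF347* (8) and *ZNF491* (8) had log2 fold changes of 0.94, 0.97 and −0.37. With 50 counts or more in each library as the rule, 167 genes met it and 134 of them were higher.

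The genes that the KRAB domain acts through had no common direction. Of 36 genes of this machinery, all tested, 20 were higher and 16 lower, with a median log2 fold change of 0.02, and at an unadjusted p under 0.05 by edgeR 2 were higher and 3 lower, against 5.77% and 5.94% of all genes tested. None had an adjusted p under 0.05. This count of 5 at the unadjusted p was 17 of 36 without shATGL 3. In that fit 2931 of all 19954 genes tested were higher at that p and 2808 lower. Without any other library the count was between 0 and 2. TRIM28, the scaffold itself, was at 584 ± 12.5 CPM in shNC and 567 ± 22.2 CPM in shATGL (SD, n = 3 each). Its log2 fold change was −0.04 with a standard error of 0.05 (edgeR adjusted p = 0.755). SETDB1, the methyltransferase, was at 116 ± 5.06 CPM and 122 ± 0.571 CPM (SD, n = 3 each). Of the genes at an unadjusted p under 0.05, *ATRX*, the chromatin remodeler that deposits histone H3.3 with DAXX at silenced repeats, was at 20.6, 20.4 and 17.7 CPM in shNC and at 42.2, 39.5 and 18.7 CPM in shATGL. As for *ZNF91*, shATGL 1 and 2 were above shNC and shATGL 3 lay in its range (log2 fold change 0.77 with a standard error of 0.27, edgeR adjusted p = 0.394). *CHD3*, a NuRD remodeler, had a log2 fold change of 0.14, while *MBD3*, another NuRD subunit, had −0.16, and *SUMO2*, a modifier whose attachment activates TRIM28, had −0.23. Without shATGL 3, 7 genes of the list were higher at an adjusted p under 0.05 by edgeR and 1 was lower, against 7.94% and 6.07% of all genes tested, with log2 fold changes of 1.06 for *ATRX* and −0.32 for *SUMO2*.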

How the data were processed

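RNA of 6 MV4-11 libraries (3 shNC, 3 labelled shATGL) was sequenced, and the authors deposited a table of gene counts without normalisation. The submitters' processing notes name the build mm10, while the identifiers are human Ensembl genes. The aligner, counter and strand setting are not given in the sources used here. Every count column belonged to a sample (0 did not). Groups came from the labels.

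Genes were placed with GENCODE 29 (GRCh38). Counts were filtered with filterByExpr (minimum count 10, minimum total 15), normalised by TMM and tested with edgeR 4.0.16 (quasi-likelihood, R 4.3.3), with Benjamini-Hochberg adjustment over 19149 genes. Called means an adjusted p below 0.05 with a fold change of 2 or more. Within-group SD is the mean of both groups' SD of log2 CPM. KRAB boxes were found by pattern in the first 250 residues encoded by any protein-coding transcript of a gene. Fingers were found by pattern in the longest coding sequence, and promoters were read from RefSeq. Alternatives were DESeq2 1.42.0, limma 3.58.1 voom with quality weights, other scalings and filters, splines on length and GC (4 degrees of freedom), a replicate block and each library left out. Tables were made with pandas 2.3.3 in Python 3.11.15.

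The edgeR step was tested on simulated counts of 19149 genes, where it recovered 122 of 200 changed genes with 8 false calls and made 0 calls without changed genes. DESeq2 recovered 129 with 18 false calls and made 8 calls without changed genes. Genes with few counts carry more counting error, and members went down to 16 counts. The genes and lists were chosen with earlier results of these data known. Named are the 6 members with the smallest p in each direction, the 4 highest and 4 lowest per length, 16 with known roles, the 4 with the widest spread, 3 on each side of the count threshold, *TRIM28*, *SETDB1* and the co-repressor genes at an unadjusted p under 0.05, and *PNPLA2*. The values of 1 co-repressor gene that this rule names are not reported here.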

Additional observations from a re-analysis of the deposited data

How the results depend on the processing

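The median log2 fold change of the 191 genes was 0.16 to 0.34 and the count of those higher 138 to 158 when each library was left out in turn. The members called (0 with all libraries and edgeR) were 2 by DESeq2, 8 by limma voom and 0 to 12 with a library left out, with 12 only without shATGL 3. The 23 members higher at an unadjusted p under 0.05 were 79 by limma voom and 7 to 83 with a library left out. The 2 lower ones were 1 with 10 counts asked in every library, 1 among members of 50 or more counts, 1 without a filter, 0 by DESeq2, 4 after the length and GC correction, 6 by limma voom and 0 to 3 with a library left out. The 5 co-repressor genes at that p were 17 by limma voom, 3 with upper-quartile normalisation, 10 with the replicate block and 0 to 17 with a library left out. Of all genes tested, 15.5% were higher and 15.1% lower at that p by limma voom, and 7.92% and 9.41% with the replicate block. With upper-quartile normalisation 1069 of 19149 were higher and 890 lower. The cause of these moves was not tested. The median level per kilobase was 2.73 CPM with the median transcript length in place of the longest, against 1.33 CPM.

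The log2 fold change of *PNPLA2* changed sign to 0.018 without shATGL 2 and 0.033 without shNC 3, over a range of −0.024 to 0.033. Signs also changed for *ZNF304* (range −0.087 to 0.30), *ZNF317* (−0.027 to 0.031), *ZNF444* (−0.082 to 0.016) and *ZNF573* (−0.058 to 0.49). Same-numbered libraries had correlations of deviations of −0.03, 0.09 and 0.17, against −0.17 to 0.09 for the pairs of unlike number, and the numbers were not taken as pairs. The value of 0.17, for shNC 3 and shATGL 3, was the highest of all pairs. Whether these libraries shared a batch is not given in the sources used here. With the replicate block, 33 members were higher and 2 lower at an unadjusted p under 0.05, against 7.92% and 9.41% of all genes tested, with a median log2 fold change of 0.22.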
